A study of Mus musculus with 5 samples.

Results

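The genes followed here, in tumour cells of the mouse prostate, belong to MHC class II antigen presentation and are H2-Aa, H2-Ab1, H2-Eb1, H2-DMa, Cd74, Ciita and Ctss. All probe sets whose only annotated symbol is one of these genes were taken, which gave 15 of the 45037 probe sets of the table and 7 of its 18193 genes. RNA came from dissociated prostate tumours whose cells had been isolated with EpCAM beads, and was measured on single-channel Affymetrix expression arrays, 1 array per mouse. All 5 mice were C57BL/6 and carried the prostate-directed Probasin driver with floxed alleles, among them Smad4L/L. The 3 nDKO mice, aged 15.86, 10.71 and 10.71 weeks, had Pygo2 intact, and the 2 nTKO mice, aged 31.43 and 16 weeks, carried Pygo2L/L in addition. Each of the 5 arrays is a separate mouse by its animal number. Both nTKO mice were older than every nDKO mouse, with nTKO 2 close in age to nDKO 1 only. Values are log2 signals after RMA (background subtraction, quantile normalization and summary per probe set), so a difference of 1 is a 2-fold difference.

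MHC class II molecules are pairs of an alpha and a beta chain that show peptides from endosomes to CD4+ T cells. The chains bind the invariant chain Cd74 on the way to the endosome, where proteases such as cathepsin S (Ctss) cut it down, and the H2-DM dimer then helps exchange its last fragment for a peptide. Transcription of the chains, of H2-DM and of Cd74 needs the co-activator Ciita, which binds to factors assembled on conserved X and Y boxes before the start of these genes. Dendritic cells, macrophages and B cells carry class II as a rule, and epithelial cells can gain it after exposure to interferon-gamma. In RNA from a mixed suspension, more cells of a type cannot be told from more RNA per cell, and the cell that made a transcript is not known.

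The X and Y boxes are shown for an alpha chain and a beta chain whose signals are compared between mice below. The 150 bases before the annotated start were read from RefSeq on GRCm38.p6, at chr17:34287824-34287973 on the minus strand for H2-Aa and at chr17:34305717-34305866 on the plus strand for H2-Eb1. Ctss is shown for contrast, at chr3:95526636-95526785 on the plus strand. Sequences run 5′ to 3′ on the gene's strand, and capitals mark the letters searched for.
H2-Aa: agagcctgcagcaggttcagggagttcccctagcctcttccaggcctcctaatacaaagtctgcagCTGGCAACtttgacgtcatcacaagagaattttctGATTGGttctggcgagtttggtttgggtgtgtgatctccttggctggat
H2-Eb1: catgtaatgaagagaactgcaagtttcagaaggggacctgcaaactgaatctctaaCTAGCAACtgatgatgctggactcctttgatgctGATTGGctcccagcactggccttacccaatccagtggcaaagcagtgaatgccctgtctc
Ctss: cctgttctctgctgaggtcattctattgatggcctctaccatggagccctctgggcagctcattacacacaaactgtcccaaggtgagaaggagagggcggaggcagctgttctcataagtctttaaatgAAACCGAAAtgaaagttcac

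In H2-Aa and H2-Eb1 the capitals are an X box match (CTNGNAAC, N being any base) followed by a Y box match (GATTGG, an inverted CCAAT box), with 27 bases between the matches in H2-Aa and 26 in H2-Eb1. In Ctss they match the core of an interferon-stimulated response element (AAANNGAAA). Both strands of 32851 RefSeq windows of 300 bases (250 before to 50 after a start) were searched. The X letters were in 13.2% of windows, the Y letters in 16.1% and the response element letters in 10.6%. A Y match starting 25 to 45 bases after an X match on the same strand was in 32 windows, or 0.0974%. The letters and the distance were chosen after these windows were read, so the matches in them are a description. Windows of 4 of the 7 members were found (not H2-Ab1, Cd74 or Ciita), and neither of those of H2-DMa held the pair. Windows of H2-DMb1 and H2-Ob, which encode further class II chains, did hold it. Of the interferon-gamma genes and the macrophage markers described below, 12 genes each were searched, with 13 windows per list. The pair was in 0 of 13 windows of either list. At a share of 0.0974% of all windows, few lists of this size would hold it.

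The array medians were 4.94 to 4.98, which quantile normalization makes alike whatever the samples. The deleted Pygo2 was lower in both nTKO mice (7.30 and 6.35) than in every nDKO mouse (8.62 to 8.72). Epithelial markers were bright on all arrays, with Epcam, the bead target, at 12.94 to 13.48. Arrays nDKO 1 and nTKO 1 stood apart by squamous differentiation genes, with list means of 10.51 and 9.89 against 6.85 to 7.38 on the other arrays. Results are therefore also given without these mice where they change.

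The chains of the class II dimers were high in nDKO 3 and nTKO 1 and low in the other mice. H2-Ab1, the beta chain of I-A, measured 8.80, 8.66 and 10.05 in the nDKO mice and 10.01 and 8.92 in the nTKO mice, in replicate order as throughout. H2-Aa, its alpha chain, measured 9.43, 9.19 and 10.75 (nDKO) and 10.14 and 9.54 (nTKO). H2-Eb1, the beta chain of I-E, gave 8.36, 8.08 and 9.60 (nDKO) and 9.31 and 8.46 (nTKO). In each of these genes, by its brightest probe set, nDKO 3 was the highest mouse and nDKO 2 the lowest. Both extremes were thus nDKO mice, and the genotypes overlapped.

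The genes for peptide loading followed the chains. The invariant chain Cd74 measured 8.78, 8.72 and 10.04 (nDKO) and 9.84 and 9.01 (nTKO). H2-DMa, the alpha chain of the peptide exchanger, measured 5.90, 5.85 and 6.89 (nDKO) and 6.62 and 6.30 (nTKO). The protease Ctss gave 10.02, 9.57 and 10.59 (nDKO) and 11.08 and 10.28 (nTKO). It was highest in nTKO 1, not in nDKO 3, and here too nDKO 2 was lowest and the genotypes overlapped.

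The co-activator Ciita was dim. Its brightest probe set measured 4.18, 4.0 and 4.42 in nDKO and 4.19 in both nTKO mice, below the median of every array. At this level neither presence nor absence of the transcript is shown. Its highest value was again in nDKO 3 and its lowest in nDKO 2. The other 2 probe sets of Ciita gave 3.72 to 4.26, highest in nDKO 3, and 3.2 to 3.3, highest in nDKO 2.

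**Figure D1:**
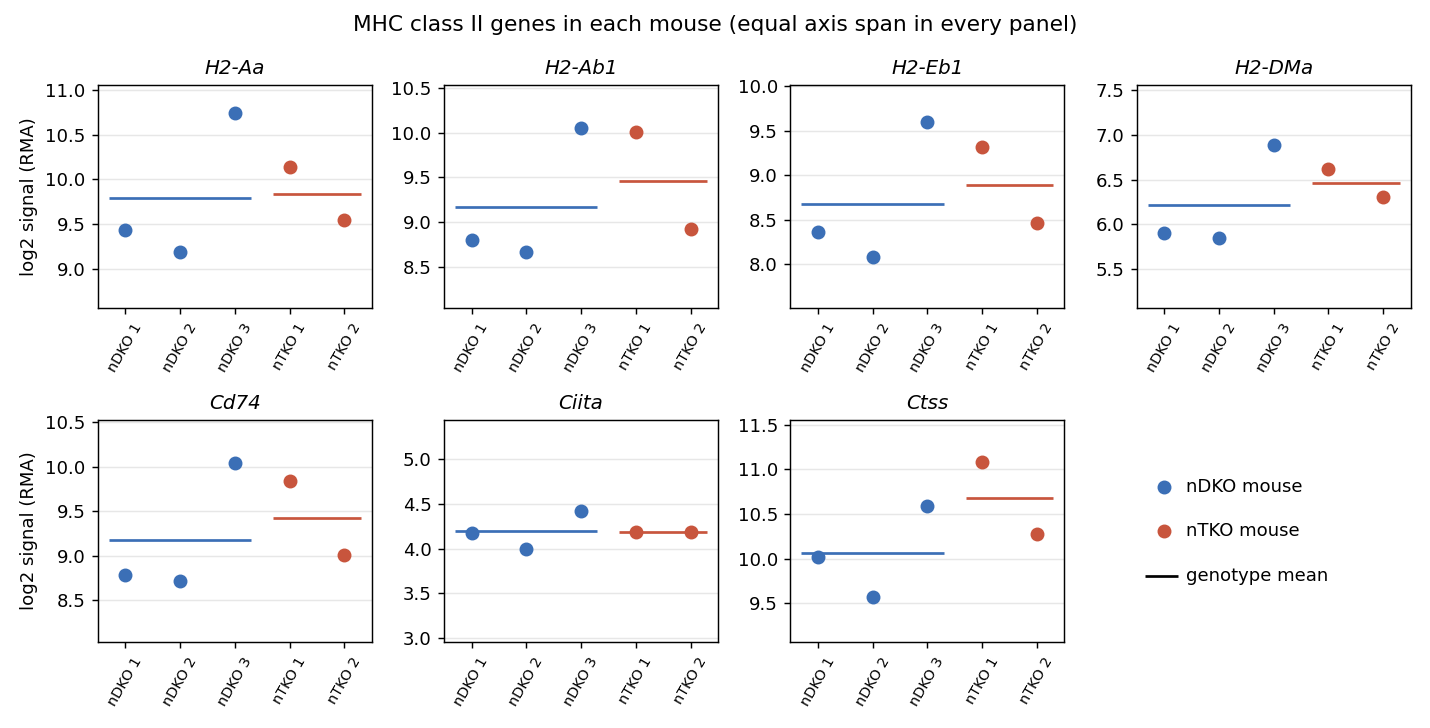
Log2 signal (vertical axis, RMA) of the 7 class II genes in each of the 5 mice (horizontal axis), with a line at each genotype mean and the same span of the axis in every panel. In every gene but Ctss the highest point is nDKO 3, in all of them the lowest is nDKO 2, and the nTKO points lie within the nDKO range except nTKO 1 for Ctss at 11.08.

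The order of the mice was nearly the same from gene to gene. From high to low it was nDKO 3, nTKO 1, nTKO 2, nDKO 1 and nDKO 2 for H2-Aa, H2-Ab1, H2-Eb1, H2-DMa and Cd74. These are 5 of the 7 members, and the same order was found in 45 of all genes, or 0.247%. Ciita differed by its tie between the nTKO mice, and Ctss by the exchange of the 2 highest mice. The 2 highest arrays were nDKO 3 and nTKO 1 for 6 of 7 members, against 8.15% of all genes. Both the order and the 2 highest arrays were read from the members themselves, so these counts are a description and no test. The signal spanned at least 1 log2 unit over the 5 arrays for 6 of 7 members, against 7.41% of all genes, and the median span was 1.39 against 0.31. The neighbours nDKO 1 and nTKO 2 in this order lay close, at 0.11, 0.12 and 0.10 apart in H2-Aa, H2-Ab1 and H2-Eb1.

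Most further probe sets shared nDKO 3 and nTKO 1 as highest arrays and nDKO 2 as lowest, but not always the highest mouse. All 4 probe sets of H2-Aa had nDKO 3 and nTKO 1 as their highest arrays and nDKO 2 as their lowest, with spans of 1.38 to 1.63, including a dim one at 3.47 to 5.08. Those of H2-Ab1 spanned 1.08 to 1.72, and the dimmer one of H2-DMa 0.43. Over the 15 probe sets, 13 had nDKO 3 and nTKO 1 highest and 14 had nDKO 2 lowest. In H2-Aa, nTKO 1 was above nDKO 3 in a bright further set (9.98 against 9.89) and in the dim one (5.08 against 4.76). The dimmer set of H2-DMa also had nTKO 1 highest (4.77 against 4.68). The mouse nDKO 1 was above nTKO 2 in the dim set of H2-Aa (3.91 against 3.71) and the dimmest of H2-Ab1 (6.69 against 6.68). The highest mouse and the full order given above thus depend on the probe set taken. Some of these sets, marked by the suffix _x_at, hold probes that can bind more than 1 transcript. The set taken for H2-Aa as a gene is among them. Levels of different probe sets are not comparable, only their differences between mice.

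No member passed the test between the genotypes. The question of this comparison is which transcripts change when Pygo2, a co-activator of beta-catenin that reads methylated histone H3, is lost. Ctss had the largest difference, 0.62 on the log2 scale (SE 0.41, 95% interval -0.50 to 1.74, limma adjusted p = 0.853), from means of 10.06 (SD 0.51, n = 3) in nDKO and 10.68 (SD 0.57, n = 2) in nTKO cells. H2-Ab1 differed by 0.295 (SE 0.59, 95% interval -1.31 to 1.90, limma adjusted p = 0.931), and H2-Aa by 0.05 (SE 0.56, 95% interval -1.48 to 1.58, limma adjusted p = 0.996). The SD between the nDKO mice was 0.84 in H2-Aa and 0.77 in H2-Ab1, well above either difference. H2-DMa (0.25), Cd74 (0.245) and H2-Eb1 (0.205) were higher and Ciita (-0.01) lower in mean in nTKO cells, with limma adjusted p of 0.903 to 0.999.

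Over the members, the median difference was 0.245, beside 0.028 over all genes. The adjusted threshold of 0.05 was passed by 0 of 7 members and by 0 of all genes (0%), and an unadjusted p under 0.05 by 0 of 7 members and 689 genes (3.79%). The groups did not overlap for 0 of 7 members, against 12.8% of all genes. The intervals of the chains reach from a more than 2-fold loss to a more than 2-fold gain, so like levels in the genotypes are not shown. Exact permutation of a single gene's values cannot go below p = 0.1 with 3 against 2 mice.

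The sign of the difference depended on single mice. Without nDKO 3, all 7 members were higher in both nTKO mice than in the other 2 nDKO mice, with a median difference of 0.665, where 20.3% of all genes have groups that do not overlap. In that setting Ctss was higher by 0.885. Without nTKO 1 the median was -0.17, with H2-Aa and H2-Ab1 both at -0.25. It was 0.015 without nDKO 2, 0.045 without nDKO 1 and 0.63 without nTKO 2. Without both squamous-rich arrays, nDKO 1 and nTKO 1, it was -0.37, and after adjustment for log2 age 0.0044. Between the mice closest in age across genotypes, nTKO 2 (16 weeks) minus nDKO 1 (15.86 weeks), the median was 0.12, from 0.01 for Ciita to 0.40 for H2-DMa. Ctss was the only member with a positive difference in every setting computed, from 0.15 to 1.02.

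**Figure D2:**
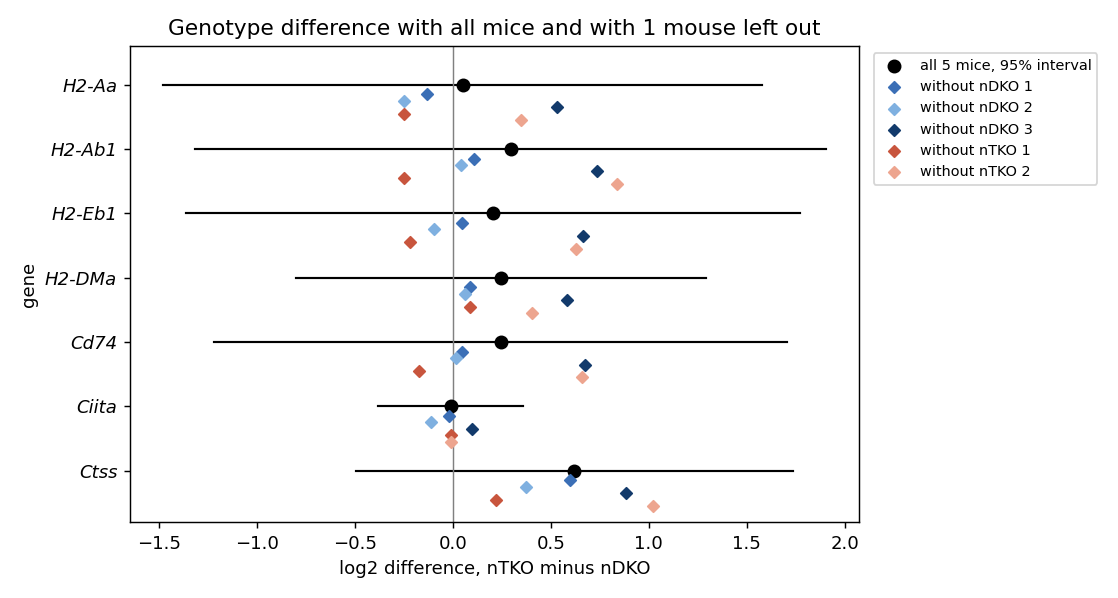
Log2 difference nTKO minus nDKO (horizontal axis) of each class II gene, as the limma estimate with its 95% interval over all 5 mice (black) and with 1 mouse left out (diamonds). All intervals include 0, and leaving out nDKO 3 or nTKO 1 moves the chains to opposite sides, as in H2-Aa at 0.53 and -0.25.

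Ctss spanned 1.51 from nDKO 2 to nTKO 1. In every other member, by the probe set taken for it, the largest difference lay between 2 mice of the same genotype and age. Both nDKO 2 and nDKO 3 were 10.71 weeks old, and neither was rich in squamous transcripts. H2-Aa was 1.56 higher in nDKO 3 than in nDKO 2, a 2.95-fold difference and at rank 61 of all genes. H2-Eb1 followed at 1.52 (2.87-fold), H2-Ab1 at 1.39 (2.62-fold), Cd74 at 1.32 (2.5-fold), H2-DMa at 1.04 and Ctss at 1.02, while Ciita was at 0.42. A difference of at least 1 was thus found in 6 of 7 members, and in 167 of all genes (0.918%), with 9 genes as much lower. This pair of mice was chosen after the values were seen, and a single mouse per side gives no test.

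The nTKO mice differed by less, with nTKO 1 at or above nTKO 2 in every member. Which of the 2 mice was subtracted was chosen after the values were seen. H2-Ab1 was 1.09 higher in nTKO 1 than in nTKO 2, H2-Eb1 0.85, Cd74 0.83, Ctss 0.80, H2-Aa 0.60 and H2-DMa 0.32, and Ciita was equal in the 2 mice. At least 1 log2 unit was reached by 1 of 7 members, against 1.94% of all genes. These 2 mice were 31.43 and 16 weeks old and differed in squamous content, and age and squamous content cannot be told apart here.

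**Figure D3:**
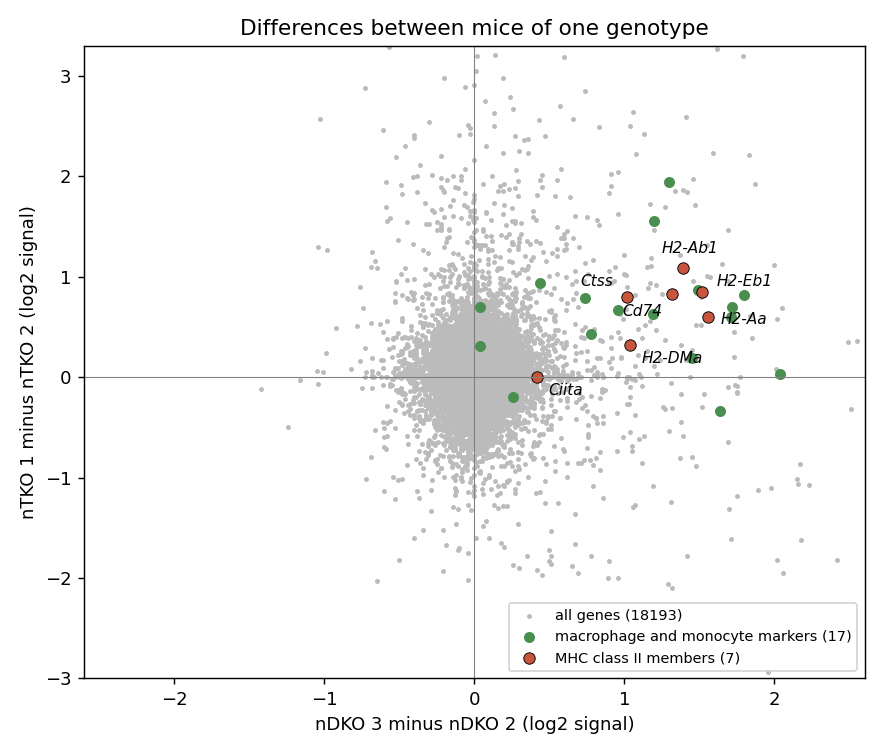
Each gene's log2 difference between nDKO 3 and nDKO 2 (horizontal axis) and between nTKO 1 and nTKO 2 (vertical axis), with 48 of 18193 genes outside the axes. Apart from Ciita, the class II members lie above 0 on the vertical axis and from 1.02 to 1.56 on the horizontal axis. Ciita lies at 0.42 on the horizontal and at 0 on the vertical axis.

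Macrophage and monocyte markers, the reference for the members, were also highest in nDKO 3 and nTKO 1 and lowest in nDKO 2 by their list mean. The mean log2 signal of 17 such markers was 7.43, 6.92 and 8.02 (nDKO) and 7.75 and 7.12 (nTKO). That of the members was 7.92, 7.72 and 8.91 (nDKO) and 8.74 and 8.10 (nTKO). Summed on the linear scale, the marker signal was 4701 to 9375 (nDKO) and 5190 to 8366 (nTKO), and that of the members 2515 to 6292 and 3437 to 5992. The 2 highest arrays were nDKO 3 and nTKO 1 for 11 of 17 markers, against 8.15% of all genes. For 10 of 17 markers nDKO 3 was at least 1 log2 unit above nDKO 2, against 0.918% of all genes. These arrays were picked by the values of the members, so the counts are a description. The part of macrophages and monocytes in the class II signal was not tested.

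Single markers varied in their order of the mice. Csf1r, the receptor that macrophages depend on, measured 9.37, 8.24 and 9.96 (nDKO) and 9.61 and 8.91 (nTKO). Aif1, a cytoskeletal protein of macrophages, measured 4.96, 4.73 and 5.92 (nDKO) and 5.90 and 5.27 (nTKO) and was the only marker of that list with the full order of the class II chains. Lysozyme, Lyz2, measured 10.79, 9.13 and 11.17 (nDKO) and 9.97 and 9.94 (nTKO), so that nDKO 1 was near the top rather than near the bottom. The complement gene C1qa was 8.20, 7.64 and 9.09 (nDKO) and 7.46 and 7.27 (nTKO), low in both nTKO mice. Its partners C1qb, with 8.72, 7.76 and 9.47 (nDKO) and 8.77 and 8.17 (nTKO), and C1qc, with 7.28, 6.40 and 7.89 (nDKO) and 7.55 and 6.68 (nTKO), were instead second highest in nTKO 1. The mannose receptor Mrc1 was lowest in nDKO 1 (7.90) and differed little between the other mice (8.41 to 8.89).

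Markers shared by leukocytes were also high in nDKO 3 and nTKO 1. Ptprc (CD45) measured 7.46, 6.87 and 8.33 (nDKO) and 8.84 and 6.87 (nTKO), and Cd52 8.45, 9.01 and 10.49 (nDKO) and 9.60 and 9.08 (nTKO). For 5 of 6 such markers nDKO 3 and nTKO 1 were the highest arrays, against 8.15% of all genes. B cell markers were flat (list means 4.40 to 4.43), with a median of 0.155 for the span of a gene, and so were T cell markers (4.55 to 4.71). Of 10 markers of dendritic cells, 5 lay below the array medians on average. Their list mean ran from 5.0 in nDKO 1 and nDKO 2 to 5.34 in nDKO 3. Neutrophil markers had another order, with the highest list mean in nTKO 1 (7.76), the lowest in nTKO 2 (5.72) and 6.50 in nDKO 3.

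The members and the macrophage markers parted most in nDKO 1. With each gene set to its own mean over the 5 arrays, the members averaged -0.35, -0.55 and 0.63 (nDKO) and 0.46 and -0.18 (nTKO). The macrophage markers averaged -0.016, -0.53 and 0.57 (nDKO) and 0.30 and -0.33 (nTKO). The difference, members minus markers, was -0.34 in nDKO 1, -0.024 in nDKO 2, 0.052 in nDKO 3, 0.16 in nTKO 1 and 0.15 in nTKO 2. Both nTKO mice thus lay above all nDKO mice in this difference. This held for 1 of 14 lists set against the members, and no test was made of it.

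**Figure D4:**
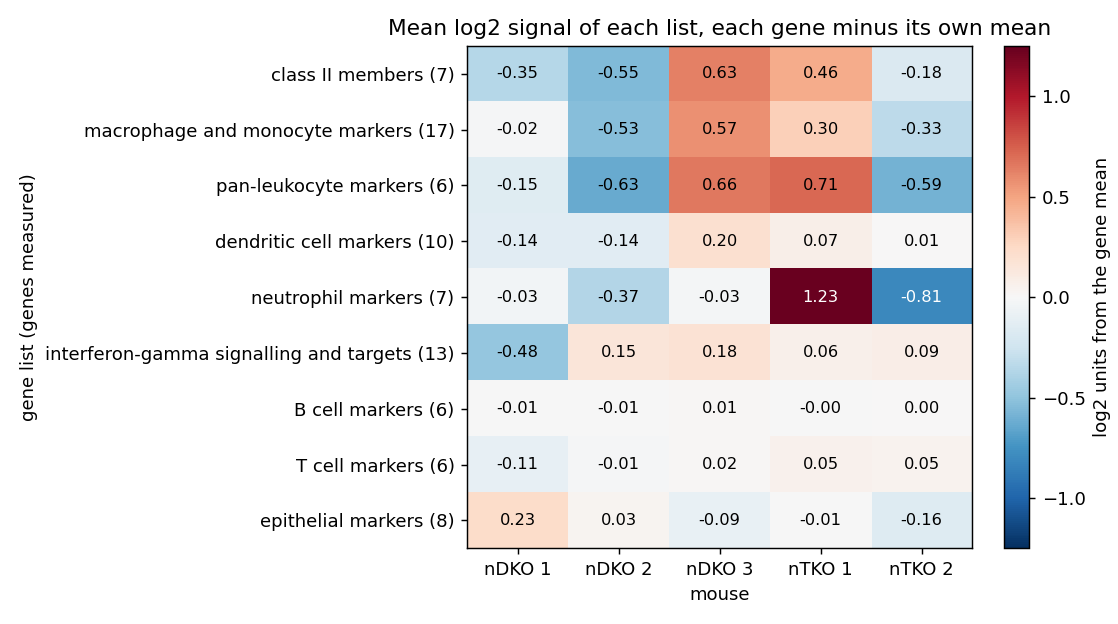
Mean log2 signal of each gene list in each mouse, every gene taken relative to its own mean over the 5 arrays (colour and printed value, log2 units). The class II row runs from -0.55 to 0.63 and the macrophage row from -0.53 to 0.57, while the interferon-gamma row is low in nDKO 1 alone (-0.48) and the B and T cell rows are near 0.

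Among 13 interferon-gamma signalling genes, 3 had nDKO 3 and nTKO 1 as their highest arrays, against 8.15% of all genes. These were Gbp2, Irf2 and Jak1. Gbp2 measured 8.44, 9.23 and 9.35 (nDKO) and 9.51 and 9.06 (nTKO), and Irf2 8.04, 7.98 and 8.18 (nDKO) and 8.72 and 8.12 (nTKO). The full order of the class II chains was in 0 of the 13, where the share over all genes was 0.247%. Of these 13, 9 were higher and 4 lower in mean in nTKO cells, with 0 past the limma adjusted threshold. Their list mean was lowest in nDKO 1 (8.58) and lay between 9.13 and 9.25 in the other mice. Igtp, an interferon-induced GTPase, measured 8.84, 10.10 and 10.28 (nDKO) and 10.10 and 9.98 (nTKO). Nlrc5, the class I counterpart of Ciita, measured 7.59, 8.49 and 8.64 (nDKO) and 8.49 and 8.56 (nTKO). Between nDKO 3 and nDKO 2, where the chains differed most, their median difference was 0.04, beside 1.32 for the members and 0 for all genes. The receptor chains Ifngr1 (9.28 to 9.51) and Ifngr2 (9.88 to 10.43) and the kinase Jak1 (8.10 to 8.39) had narrow ranges.

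Along the class II region of chromosome 17, neighbouring genes followed different orders. In the RefSeq gene order the immunoproteasome genes Psmb9 and Psmb8 and the peptide transporters Tap1 and Tap2 lie between H2-DMb1 and H2-Ob, with H2-DMa to one side and H2-Ab1, H2-Aa and H2-Eb1 to the other. Psmb9 measured 9.02, 10.36 and 10.24 (nDKO) and 9.98 and 10.21 (nTKO), and Tap1 9.04, 10.17 and 10.15 (nDKO) and 9.63 and 9.95 (nTKO). These genes were lowest in nDKO 1, and nDKO 2, the lowest mouse of the class II chains, was their highest. Brd2, a bromodomain gene next to H2-DMa, was at 9.04 to 9.50.

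**Figure D5:**
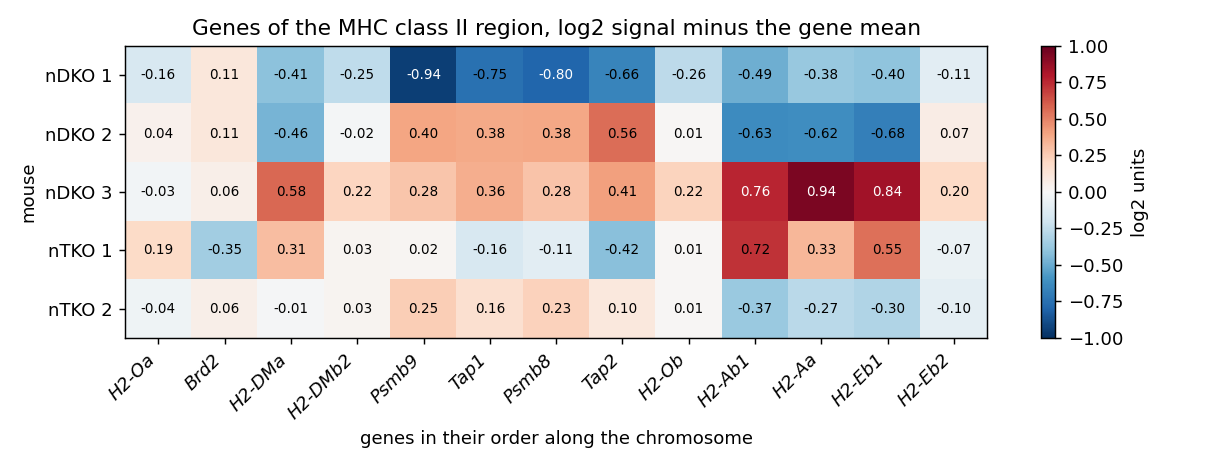
Measured genes of the MHC class II region in their order along the chromosome (horizontal axis), each as log2 signal minus its mean over the 5 arrays in each mouse (rows). H2-DMa, H2-Ab1, H2-Aa and H2-Eb1 are highest in nDKO 3 (0.58 to 0.94), whereas Psmb9, Tap1, Psmb8 and Tap2 are lowest in nDKO 1 (-0.94 to -0.66).

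The other class II chains were dim or flat. H2-Oa (4.18 to 4.53) and H2-Ob (2.47 to 2.95), which form the inhibitor of H2-DM, were below the array medians, and H2-Eb2 was at 6.10 to 6.41. H2-Ea, the alpha chain of I-E, whose promoter is deleted in the C57BL/6 haplotype, spanned 0.20 (7.14 to 7.34). H2-DMb2 measured 4.52 to 4.99. A pair of probe sets annotated to both H2-DMb1 and H2-DMb2 was not counted. The brighter measured 5.88, 6.43 and 7.01 (nDKO) and 6.51 and 6.52 (nTKO), highest in nDKO 3. The dimmer measured 4.96, 5.12 and 5.50 (nDKO) and 5.54 and 5.37 (nTKO), highest in nTKO 1 and nDKO 3. Both were lowest in nDKO 1, not in nDKO 2.

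The factors of the X and Y boxes varied little between mice. Rfx5 measured 8.34 to 8.58, Rfxank 6.76 to 7.05 and Nfyc 8.93 to 9.01, and the widest range among 7 such genes was that of Nfya (8.07 to 8.83). Of the 7, 6 were higher and 1 lower in mean in nTKO cells and 0 passed the limma adjusted threshold. Their list mean was 7.87 to 8.09 over all arrays, and highest in nTKO 1.

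Among the genes of endosomal processing and turnover, the protease Ctsl was higher in mean in nTKO cells. It measured 11.69, 11.81 and 12.01 (nDKO) and 12.47 and 12.18 (nTKO), a difference of 0.49 (SE 0.14, limma adjusted p = 0.853), and its groups did not overlap. That held for 1 of the 9 genes of this list, against 12.8% of all genes. Cathepsin L trims the invariant chain in thymic epithelium, as cathepsin S does in most antigen-presenting cells. Of 9 genes in that list, 6 were higher and 3 lower, and 0 passed the adjusted threshold. Ctsd (-0.37) was lower in mean, with 11.11 in nTKO 1 and 11.65 to 11.85 in the other mice. Marchf1, a ubiquitin ligase that lowers class II at the cell surface, had the full order of the chains but was dim, at 3.68, 3.59 and 4.12 (nDKO) and 3.8 and 3.75 (nTKO). The thiol reductase Ifi30 (9.71 to 10.02) and the protease Lgmn (8.29 to 8.73) spanned less than 0.5.

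The co-stimulatory genes Cd80 (4.54 to 4.61) and Cd40 (4.5 to 4.61) were below the array medians. Cd86 measured 4.31, 4.18 and 4.43 (nDKO) and 4.74 and 4.31 (nTKO). Of the 4 co-stimulatory genes, 3 were higher and 1 lower in mean in nTKO cells, and 0 passed the limma adjusted threshold.

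The genes whose profile over the 5 arrays came closest to that of the chains and Cd74 were Cd84, Coro1a, Aif1, Arhgap30, Mpeg1, Ncf1, Fcgr4, Klf2, Cd48 and Fcgr1. Likeness was the root mean square distance between log2 profiles, each set to its own mean. That distance was 0.14 to 0.21 for these 10 genes, against a median of 0.57 over all genes. A gene flat over the 5 arrays would also lie at 0.57. Cd84 measured 4.52, 4.26 and 5.44 (nDKO) and 5.53 and 4.42 (nTKO), and Mpeg1 7.89, 7.77 and 8.78 (nDKO) and 8.52 and 7.84 (nTKO). Among the members outside that mean, H2-DMa lay at 0.21, Ctss at 0.30 and Ciita at 0.47. Coro1a is in the list of pan-leukocyte markers, and Aif1 and Fcgr1 are in that of macrophage markers.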

How the data were processed

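The deposited table holds log2 signals, made by the authors with RMA and the Transcriptome Analysis Console per the submitters' processing notes, whose version is not stated in the labels. RMA draws dim probe sets to a floor and removes any change shared by most genes. Of 45037 probe sets, 34945 had 1 gene symbol in the platform annotation. A gene took its probe set with 1 symbol and the highest mean, which gave 18193 genes. All genes were fitted with limma 3.58.1 in R 4.3.3 (lmFit, eBayes with intensity trend, two-sided, Benjamini-Hochberg adjustment over all genes, threshold 0.05), with 3 residual degrees of freedom per gene, and all probe sets were fitted likewise. The code was tested on simulated data.

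Members and gene lists were chosen with earlier results of these data known. Named are the members, genes of the lists, and the 10 non-predicted genes nearest to the mean profile of H2-Aa, H2-Ab1, H2-Eb1 and Cd74. The order of the mice, their comparison within a genotype, the chromosomal region and the promoter letters were chosen after the values were seen. Some items are not reported here. Mice are separate animals by their labels, and the number of arrays limits the precision. No scanner files were used here.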

Additional observations from a re-analysis of the deposited data

How the results depend on the processing

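Over the alternatives the median difference of the members moved from its value with all mice, 0.245, by less than 0.69. That is the pooled SD between mice of one genotype, a width that takes in values of either sign. With 1 mouse left out, the median difference ran from -0.17 to 0.665. It was 0.20 after quantile normalization or median centring, 0.18 with array weights, 0.20 over all probe sets, and -0.37 without both nDKO 1 and nTKO 1. No gene passed the limma adjusted threshold in any setting (smallest adjusted p 0.0513, without nTKO 2), with 401 to 2996 genes at an unadjusted p under 0.05. Members whose groups do not overlap numbered 0 in the comparison of all mice, 7 with the replicate block and 0 to 7 with 1 mouse left out. The share over all genes was 12.8% with all mice, 20.3% with the block and 18.1% to 50.3% with 1 mouse left out, and without nTKO 2, where it was 50.3%, the members numbered 1.

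Of 110 values of single members under an alternative, 19 had the opposite sign. After adjustment for log2 age H2-Aa was -0.063, H2-Ab1 -0.11, H2-Eb1 -0.092 and Ciita 0.0044. Without both nDKO 1 and nTKO 1, H2-Aa was -0.43, H2-Ab1 -0.435, H2-Eb1 -0.38, H2-DMa -0.07 and Cd74 -0.37. Ciita was 0.0086 with array weights and 0.10 with the replicate block. With 1 mouse left out, H2-Aa ran from -0.25 to 0.53, H2-Ab1 from -0.25 to 0.84, H2-Eb1 from -0.22 to 0.665, Cd74 from -0.17 to 0.675 and Ciita from -0.11 to 0.10. The causes were not tested. The replicate block used the 4 mice whose number occurs in both genotypes, so it leaves out nDKO 3 and gave the same differences as leaving that mouse out (median 0.665). Replicate numbers name separate animals. Deviations from the genotype means correlated over genes at 0.42 for the mice numbered 1 and 0.34 for those numbered 2. With 2 nTKO mice their deviations mirror each other, so nDKO 1 with nTKO 2 gave -0.42 and nDKO 2 with nTKO 1 gave -0.34. Both mice numbered 1 were the squamous-rich ones, and what these correlations reflect was not tested. The filter at the median gene level of 6.32 left out H2-DMa and Ciita.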

Other observations

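Some genes of antigen-presenting cells varied between mice in another order than the class II genes. Clec10a, a lectin of macrophages and dendritic cells, measured 6.93, 4.94 and 7.17 (nDKO) and 4.93 and 6.0 (nTKO), low in nTKO 1 where the chains were high. The transcription factor Irf8 measured 5.17, 5.90 and 6.27 (nDKO) and 6.57 and 6.27 (nTKO), lowest in nDKO 1. The integrin Itgax (CD11c) was highest in nTKO 1 (6.81) and lay between 5.89 and 6.08 in the other mice. The scavenger receptor Cd163 measured 4.55, 3.71 and 5.35 (nDKO) and 4.07 and 4.41 (nTKO).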
